A study of Mus musculus with 6 samples.

Results

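The cholesterol synthesis pathway turns acetyl units into mevalonate, mevalonate into isoprenoid diphosphates, these into squalene, and squalene through lanosterol into cholesterol. In most animal cells the genes of the pathway are controlled together by SREBP transcription factors, which are activated when membrane sterol is low, and dividing cells draw on the pathway for new membrane. The 8 genes described here encode enzymes along that route. Hmgcs1, Idi1, Fdps and Fdft1 act up to squalene, Sqle and Lss from squalene to lanosterol, and Cyp51 and Dhcr7 after it. The 8 genes were chosen by name. Every probe set (a group of short array probes read together) that the array annotation gave to a single one of them was used. That gave 11 probe sets for 8 of 8251 genes, of which 9 probe sets, covering all 8 genes, were bright enough to be tested among 4822 genes. Of these genes 7 had 1 probe set each and Fdps had 4. The regulators Srebf2 and Scap were not analysed here.

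RNA came from C2AS12 cells, a mouse myoblast line derived from C2 cells, which were infected with adenovirus carrying p300, a histone acetyltransferase and transcriptional coactivator. There were 3 treatments: virus for wild-type p300 (Adp300wt), the same virus with doxycycline, and virus for mutant p300 (Adp300mut). Each was measured on 1 array at 0 h, when low-serum differentiation medium was about to be given, and on 1 array after 24 h in it, so that every array came from infected cells. Per the submitters, cells with wild-type p300 survived, and those of both other treatments died by apoptosis; neither the mutation nor the role of doxycycline is stated in the labels. Arrays were not replicated within a treatment and time, and the labels name no separate cultures, so the p-values reflect no more than how these arrays vary, which may be technical.

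The values are array signals on a linear scale, scaled by the submitters to about the same mean on each array (198.3 to 198.9 after trimming). The brightest probe set of each of the 8 genes, which stands for the gene below, read above 16.4, the value used as a floor, on every array, with 50.4 as the lowest reading. Signals of different probe sets cannot be set against each other, so levels are compared only within a gene. The labelled cell type was checked against its markers: all 7 myoblast markers, among them Myod1, Des and Myog, had a tested probe set. Of these, Myog passed the filter on mean signal only through the 24 h arrays. Of 6 macrophage and leukocyte markers, 4 were under the floor on all arrays, including Ptprc, while Cd14 read 322.4 to 416.6 and Cd68 103.9 to 173.0; neither was called over time. The endothelial marker Tek read 116.3 on the 24 h array of wild type and 2.8 to 19.5 on the other 5, while Cdh5 read 4.1 to 15.7, Pecam1 36.9 to 70.8 and Kdr 14.8 to 53.6 over the 6 arrays. None of these 4 endothelial markers was bright enough to be tested. Of 4 adipocyte markers with a probe set, only Lpl was tested, at 146.3 to 293.4. Of 6 epithelial and liver markers, only Cdh1 was tested, at 142.7 to 230.8. Neither Lpl nor Cdh1 was called over time. The part of such cells in the results below was not tested. In whole-culture RNA, fewer cells of a type and less RNA per cell cannot be told apart.

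The first comparison set 24 h against 0 h and addressed the course of differentiation, over the 3 treatments together. Of the 8 genes, 5 fell: Hmgcs1, Idi1, Fdps, Sqle and Cyp51. None rose, and Fdft1, Lss and Dhcr7 did not pass the test. These calls rest on the filter that kept the brighter 6212 probe sets: with all 12422 tested, 0 of the 8 genes were called and 5 had an unadjusted p under 0.05. Without the trend in the variance 3 were called, and Hmgcs1 and Cyp51 were not (adjusted p = 0.07 and 0.0561). Of the 4822 genes tested, 9.33% were called lower and 7.67% higher at 24 h (limma, adjusted p under 0.05 over all probe sets tested). In 7 of the 8 genes, all but Dhcr7, the 3 arrays at 24 h all read below the 3 arrays at 0 h, against 15.7% of all genes tested. The median change of the 8 genes was -0.65 on the log2 scale and that of all genes tested 0.01. Cells kept for 24 h in growth medium were not measured, so the effects of the medium and of the hours in culture cannot be told apart.

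**Figure D1:**
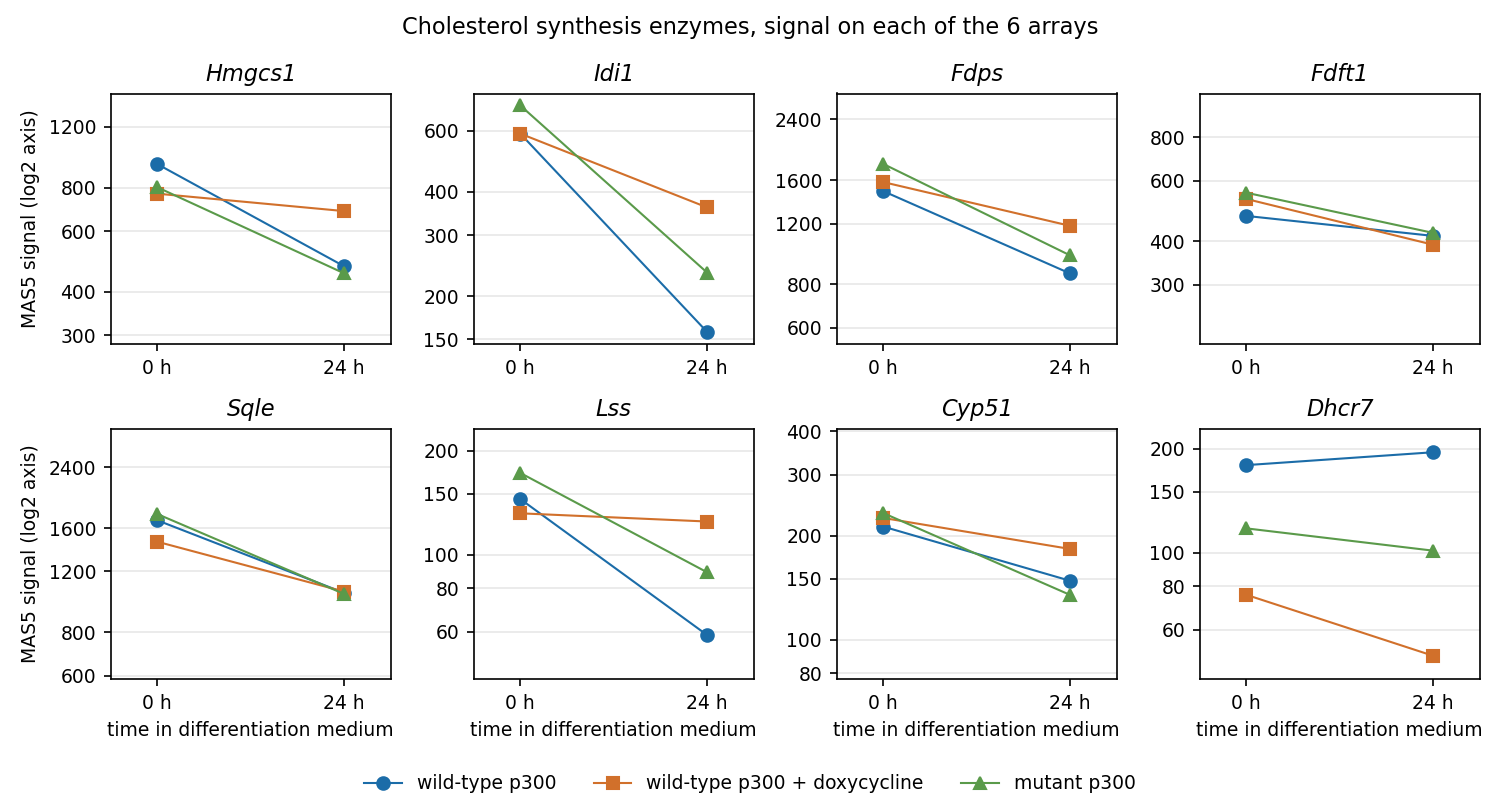
MAS5 signal of the 8 enzymes on a log2 axis at 0 h and 24 h, with 1 point for each array and lines joining the arrays of a treatment (circles, wild-type p300; squares, with doxycycline; triangles, mutant p300). The vertical span covers the same ratio in each panel; 7 genes read lower on every 24 h array than on any 0 h array, while Dhcr7 is ordered by treatment at both times.

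Among the enzymes before squalene, Idi1, the isomerase that makes the isoprenoid building blocks interconvertible, changed most. It read 589.2, 589.4 and 710.7 at 0 h for wild type, doxycycline and mutant in turn, and 157.6, 360.8 and 233.9 at 24 h. The times did not overlap, and the wild-type array was the lowest at 24 h. Idi1 fell by 1.41 ± 0.62 on the log2 scale (SD, n = 3 treatments; adjusted p = 0.00263), to 0.378 of its level at 0 h. Hmgcs1, the synthase that commits acetyl units to mevalonate, read 936.2, 769.1 and 802.5 at 0 h and 474.6, 685.0 and 452.8 at 24 h, in the same order. The doxycycline array at 24 h stayed close to the 0 h arrays, while the other 2 were well below them. Hmgcs1 fell by 0.66 ± 0.43 (SD, n = 3; adjusted p = 0.0212). Without the mutant array of either time its change was -0.57 and not called, with adjusted p = 0.138 and 0.136.

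Fdps makes farnesyl diphosphate, the branch point from which sterols, protein prenyl groups and ubiquinone side chains are built. Its brightest probe set read 1488.0, 1580.3 and 1783.2 at 0 h and 860.6, 1181.6 and 970.8 at 24 h for wild type, doxycycline and mutant in turn. The times did not overlap. Fdps fell by 0.70 ± 0.24 (SD, n = 3; adjusted p = 0.00381) by this probe set; the mean of all 4 of its probe sets changed by -0.35 and was not called (adjusted p = 0.13). A second Fdps probe set, whose name ends in _f_at and which may also bind related transcripts, fell by 0.66 ± 0.29 (adjusted p = 0.00681). The other 2 Fdps probe sets were too dim to be tested, at 31.4 to 56.2 and 1.4 to 13.1 over the 6 arrays, and the first of them read higher at 24 h than at 0 h only in the wild-type treatment. The second was under the floor on every array, so its change was 0 by construction, and both dim probe sets enter the mean of the 4.

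Around squalene, Sqle is the epoxidase at a rate-limiting step of sterol synthesis. It read 1685.3, 1461.6 and 1757.1 at 0 h and 1040.3, 1049.1 and 1032.8 at 24 h. The 3 arrays at 24 h lay close together and well below those at 0 h. Sqle fell by 0.65 ± 0.15 (SD, n = 3; adjusted p = 0.00281). Fdft1, squalene synthase, read 474.1, 530.7 and 553.2 at 0 h and 415.1, 391.4 and 423.5 at 24 h. Every 24 h array was below every 0 h array, but the change of -0.34 ± 0.13 (SD, n = 3) missed the threshold, with adjusted p = 0.0509. It was called without the wild-type array of either time, at -0.41 with adjusted p = 0.0138 and 0.0156. Lss, lanosterol synthase, read 145.0, 131.9 and 172.5 at 0 h and 58.7, 124.9 and 89.1 at 24 h. The doxycycline array barely moved and the wild-type array moved most, so the mean change of -0.78 ± 0.63 (SD, n = 3) was not called (adjusted p = 0.0598). Without the doxycycline array of either time the change of Lss was -1.13, with adjusted p = 0.0186 and 0.0187.

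After lanosterol, Cyp51, the cytochrome P450 that removes a methyl group from lanosterol, read 212.3, 224.9 and 232.3 at 0 h and 148.1, 183.0 and 134.8 at 24 h. It fell by 0.53 ± 0.24 (SD, n = 3; adjusted p = 0.0368). That call was lost without the mutant array of either time (-0.41, adjusted p = 0.212 and 0.198) and without the doxycycline array of either time (-0.65, adjusted p = 0.0542 and 0.053). Dhcr7, the reductase of the last step to cholesterol, was the exception. It read 179.1, 75.6 and 117.6 at 0 h and 195.1, 50.4 and 101.4 at 24 h for wild type, doxycycline and mutant in turn, and the times overlapped. Its change of -0.23 ± 0.35 (SD, n = 3) was not called (adjusted p = 0.473).

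The size of the change differed among treatments. The median change of the 8 genes was -0.74 in the wild-type, -0.43 in the doxycycline and -0.81 in the mutant treatment, while those of all genes tested lay between -0.02 and 0.03. In 6 of the 8 genes (Hmgcs1, Idi1, Fdps, Sqle, Cyp51 and Lss) the change with doxycycline was the highest of the 3, here the smallest decrease; in 35.8% of all genes tested the doxycycline change was the highest. Lss changed by -0.08 with doxycycline, against -1.31 with wild-type and -0.95 with mutant p300. Hmgcs1 changed by -0.17, against -0.98 and -0.83, and Idi1 by -0.71, against -1.90 and -1.60. The difference of the doxycycline change from the others was not tested. The test of a different change in wild type than in both other treatments called none of the 8 genes, against 0% of the genes tested. It gave 0 of the 8 genes, and 197 probe sets out of 6212, at an unadjusted p under 0.05.

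**Figure D2:**
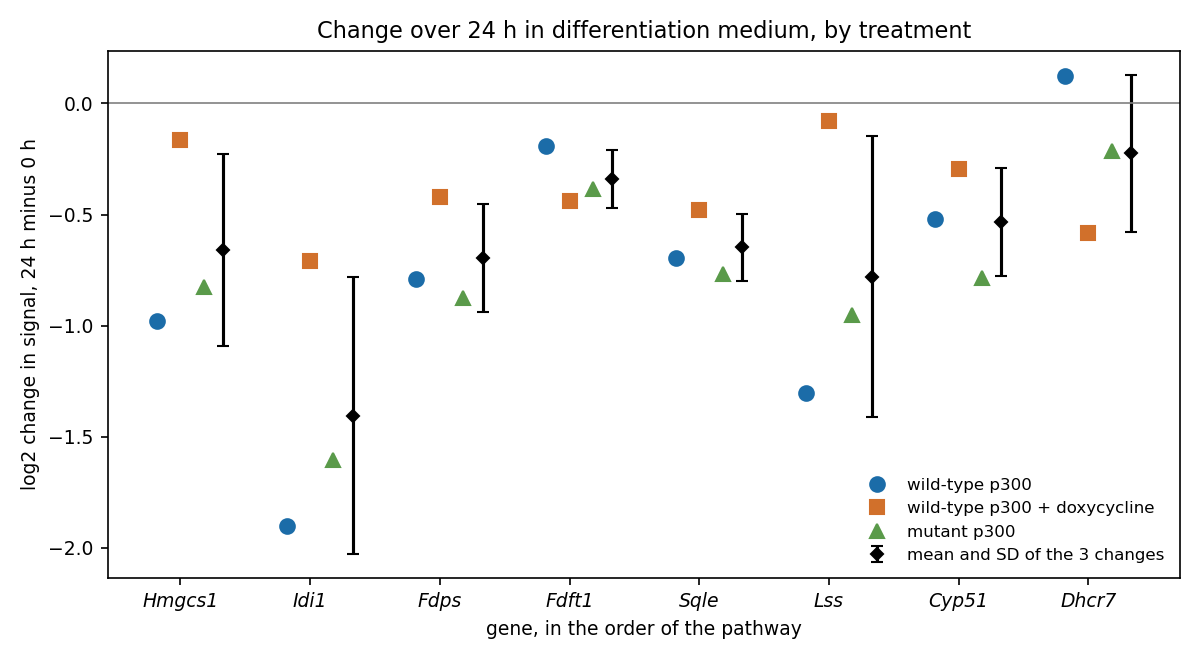
Log2 change in signal from 0 h to 24 h for each enzyme in each treatment (coloured points, 1 pair of arrays each), with the mean and SD of the 3 changes (black). Idi1 and Lss spread most, with Lss at -0.08 with doxycycline and -1.31 with wild-type p300; Sqle and Fdft1 spread least, with SDs of 0.15 and 0.13.

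The sequence before each gene is shown because genes of this pathway share promoter elements: the sterol response element, bound by SREBP, and the CCAAT and GC boxes, bound by NF-Y and by Sp factors. Of the 8 genes, 5 had a RefSeq promoter entry of 300 bases around the annotated start (Hmgcs1, Idi1, Cyp51, Lss and Dhcr7; build GRCm38.p6). The letters CACNCCAC, a core of the sterol element, were searched on both strands, as were CCAAT and GGGCGG, and the motifs marked do not overlap each other. In the 32851 promoter windows of that length, 6.2% held CACNCCAC, 37.4% CCAAT and 35.7% GGGCGG. The sterol core was matched only in Hmgcs1, whereas CCAAT and GGGCGG were each matched in all 5 genes. Hmgcs1 held 4 CCAAT and 3 GGGCGG matches, Idi1 2 and 1, Lss 1 and 2, and Cyp51 1 of each. Dhcr7 has 3 listed starts: the most downstream held 2 CCAAT and 3 GGGCGG matches, the first 1 GGGCGG match and the middle one none. A match is a description of letters and not a site of binding. Below, matches are in capitals on either strand, for the gene with the sterol core, the gene that fell most and, of the 3 genes not called, the one with the highest adjusted p.
Hmgcs1, chr13:119690101-119690400, plus strand: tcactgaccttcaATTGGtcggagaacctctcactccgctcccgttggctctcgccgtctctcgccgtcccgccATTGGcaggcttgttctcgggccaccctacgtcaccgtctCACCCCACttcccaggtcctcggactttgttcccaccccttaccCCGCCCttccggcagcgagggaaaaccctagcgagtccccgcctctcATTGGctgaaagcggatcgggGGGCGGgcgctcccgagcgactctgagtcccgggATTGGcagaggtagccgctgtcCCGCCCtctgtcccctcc
Idi1, chr13:8885356-8885655, plus strand: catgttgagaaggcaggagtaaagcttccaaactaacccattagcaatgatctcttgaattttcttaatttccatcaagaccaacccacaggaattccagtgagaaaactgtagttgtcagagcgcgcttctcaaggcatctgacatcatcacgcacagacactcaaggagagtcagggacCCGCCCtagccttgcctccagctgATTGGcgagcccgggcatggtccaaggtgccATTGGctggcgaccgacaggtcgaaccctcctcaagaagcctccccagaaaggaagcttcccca
Dhcr7, chr7:143829964-143830263, plus strand: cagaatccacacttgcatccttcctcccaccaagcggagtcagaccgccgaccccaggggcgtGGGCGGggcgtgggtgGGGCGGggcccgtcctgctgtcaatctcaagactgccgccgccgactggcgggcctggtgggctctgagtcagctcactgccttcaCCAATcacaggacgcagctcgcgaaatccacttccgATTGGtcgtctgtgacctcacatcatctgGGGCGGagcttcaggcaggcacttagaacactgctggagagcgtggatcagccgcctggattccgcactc

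The second comparison set the wild-type arrays against the doxycycline and mutant arrays and addressed survival against death. By limma 0 of the 8 genes were called over both times, where 0.56% of the genes tested were called, and 0 at 24 h, where 0.83% were. At 0 h 0 of the 8 were called, with 0% of the genes tested. At an unadjusted p under 0.05 there were 2 of the 8 over both times (Dhcr7 and Idi1), 3 at 24 h (Dhcr7, Idi1 and Lss) and 0 at 0 h. The same threshold was passed by 852, 713 and 262 of all 6212 probe sets, respectively. Both differences use the same wild-type array of a time, and because wild type has a single array there, its spread was taken from the other treatments.

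Dhcr7 had the widest difference between treatments of the 8 genes at both times. Its wild-type array was the highest and its doxycycline array the lowest at 0 h and at 24 h. The wild-type array read 2.37 times the doxycycline array and 1.52 times the mutant array at 0 h, and 3.87 and 1.92 times at 24 h. The difference of wild type from both other treatments over both times was 1.19 ± 0.31 on the log2 scale (SE of the fit; adjusted p = 0.136, unadjusted 0.00391). At 24 h it was 1.45 ± 0.46 (SE; adjusted p = 0.259). Leaving out the doxycycline or mutant array of 0 h left that at 24 h at 1.45. It was then called, with its spread taken from the 24 h arrays alone. Without the mutant array of 24 h it was 1.95, and without the doxycycline array of 24 h 0.94. Each of these is a difference of 2 single arrays, with its spread taken from the 0 h arrays alone, so no call is read from it. Scaled to the spike-in controls, the Dhcr7 difference was called at both readings by limma. It was 1.35 over both times (adjusted p = 0.000295) and 1.81 at 24 h (adjusted p = 0.0139). That scaling also moved the median of all probe sets tested from -0.04 to 0.32 at 24 h and from -0.03 to 0.13 over both times.

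Idi1 and Lss lay the other way at 24 h. At that time Idi1 read 0.437 of the doxycycline array and 0.674 of the mutant array in wild type, and Lss 0.47 and 0.659. At 0 h the same arrays lay within 1.21-fold of each other for Idi1 and 1.31-fold for Lss. The difference at 24 h was -0.88 ± 0.27 for Idi1 (SE; adjusted p = 0.248) and -0.85 ± 0.33 for Lss (SE; adjusted p = 0.37). Leaving out the doxycycline or the mutant array of 0 h left the difference of Idi1 at -0.88. It was then called, with its spread taken from the 24 h arrays alone. Without the mutant array of 24 h it was -1.20, which is a difference of 2 single arrays. Its spread then came from the 0 h arrays alone, so no call is read from it. Sqle and Fdft1 hardly differed among treatments at 24 h, where their 3 arrays lay within 1.02-fold and 1.08-fold. Hmgcs1, Fdps and Cyp51 were highest with doxycycline at 24 h, at 1.51, 1.22 and 1.36 times the mutant array.

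**Figure D3:**
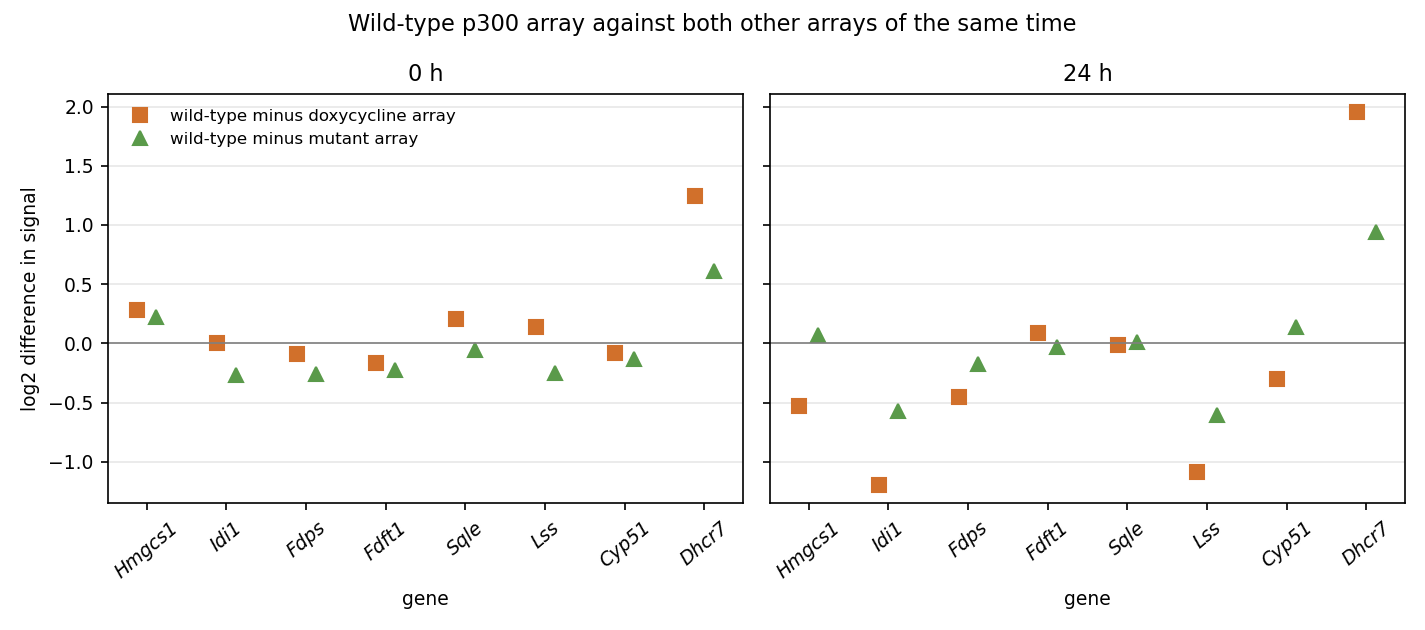
Log2 difference of the wild-type p300 array from the doxycycline array (squares) and from the mutant array (triangles) of the same time, for each enzyme; each point is a difference of 2 single arrays. Dhcr7 stands above 0 at both times, at 1.95 and 0.94 at 24 h, and Idi1 and Lss stand below 0 at 24 h.

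The doxycycline and mutant treatments, which share the outcome of death, were set against each other over both times. By limma 0 of the 8 genes were called, against 0% of the genes tested, with 1 of the 8, and 818 probe sets out of 6212, at an unadjusted p under 0.05. That gene was Dhcr7, whose doxycycline arrays read 0.643 and 0.497 of the mutant arrays at 0 h and 24 h, a mean difference of -0.82 ± 0.24 (SE; adjusted p = 0.231). For the other 7 genes the mean difference lay between -0.12 (Sqle) and 0.27 (Hmgcs1). The sign turned between the times for Hmgcs1, Idi1, Fdps, Sqle, Cyp51 and Lss. Each of these read lower with doxycycline than with mutant p300 at 0 h and higher at 24 h. These are differences of single arrays, and some were very small. At 0 h the doxycycline array read 0.968 of the mutant array for Cyp51, 0.958 for Hmgcs1 and 0.765 for Lss. At 24 h it read 1.02 times the mutant array for Sqle and 1.54 times for Idi1. The doxycycline array was the highest at 24 h in 6 of the 8 genes, against 37.7% of all genes tested. The share of all genes with such a turn was not counted.

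Other genes of the pathway were taken from lists. Of 15 further sterol enzymes, 10 had a probe set and 8 were tested. Of these, 2 fell over time, 0 rose and 6 did not pass, while 9.33% of all genes tested were called lower. The median change of these sterol enzymes was -0.29. Lbr, a nuclear envelope protein with sterol reductase activity, read 353.5, 407.7 and 459.1 at 0 h and 171.8, 229.4 and 214.4 at 24 h, and fell by 0.99 ± 0.14 (SD, n = 3; adjusted p = 0.000792). Msmo1, the sterol methyl oxidase that acts after Cyp51, fell by 0.84 ± 0.37 (adjusted p = 0.00649). Mvd, the mevalonate diphosphate decarboxylase just before Idi1, changed by -0.57 ± 0.21 and was not called (adjusted p = 0.057). Sc5d, the desaturase just before Dhcr7, was too dim to be tested and read 72.3 to 83.2 at 0 h and 39.4 to 50.4 at 24 h.

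Of 16 genes of sterol uptake and SREBP control, 7 had a probe set and 5 were tested; 0 rose and 0 fell (limma; the lowest adjusted p was 0.0772, for Mbtps1, a protease that activates SREBP). Srebf1, which encodes an SREBP, read 490.2, 661.4 and 573.7 at 0 h and 426.0, 645.8 and 502.8 at 24 h, with the doxycycline array highest at both times. Its change was -0.14 ± 0.09 (SD, n = 3; adjusted p = 0.339). Insig1, a sterol-sensing retention protein and itself an SREBP target, read 1.6 to 10.4 and was under the floor on all arrays, so its change could not be read. In fatty acid synthesis, 11 genes were tested, of which 1 fell, 0 rose and 10 missed the threshold, with a median of -0.14. That count is near the 9.33% of all genes tested that were called lower, so it is no result about the list. The one that fell was Elovl6, a fatty acid elongase, by 0.79 ± 0.41 (SD, n = 3; adjusted p = 0.0353). Fasn, fatty acid synthase, had changes of -0.60 in the wild-type, 0.19 in the doxycycline and -0.45 in the mutant treatment, and was not called (adjusted p = 0.226).

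On the side of sterol efflux and storage, 5 genes were tested. Against 7.67% of all genes tested, 2 of these were called higher, with 0 lower and 3 that did not pass. Pltp, a phospholipid transfer protein, rose by 0.67 ± 0.03 (SD, n = 3; adjusted p = 0.00153). The other was Apoe, which carries lipid out of cells, with 10.2 to 10.9 at 0 h, under the floor, and 109.2, 290.4 and 119.6 at 24 h. It passed the filter on mean signal only through the 24 h arrays, where it is high, so its call is no support for a rise and its values are a description. Abca1, the sterol efflux pump, was too dim to be tested and read 24.8 to 39.3 at 0 h and 54.0 to 108.2 at 24 h. Of 7 tested genes of the isoprenoid branches, against 9.33% of all genes tested, 1 fell, 0 rose and 6 did not pass. That gene was Coq3, a methyltransferase of ubiquinone synthesis, which fell by 0.62 ± 0.14 (SD, n = 3; adjusted p = 0.0131). In the treatment comparisons 0 genes of these 5 lists were called by limma, against 0% to 0.83% of all genes tested.

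**Figure D4:**
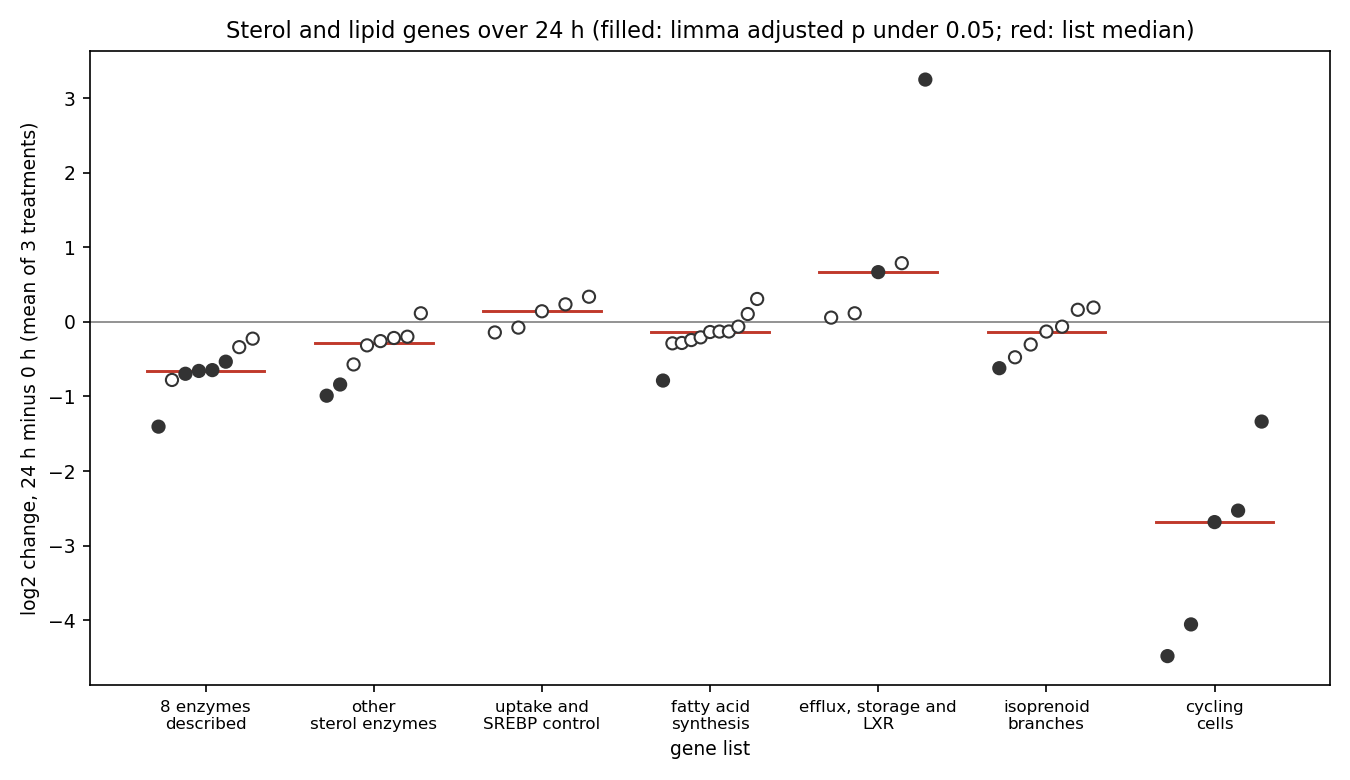
Mean log2 change from 0 h to 24 h over the 3 treatments for each tested gene of the 8 enzymes, the further sterol and lipid lists and the cycling markers (filled, limma adjusted p under 0.05; open, not called; red line, median of the list). The 8 enzymes have a median of -0.65, fatty acid synthesis -0.14, efflux and storage 0.67 and cycling markers -2.68; Apoe, the highest point, started under the floor and passed the filter only through its 24 h arrays.

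Markers of cycling cells moved with the same comparison. All 5 that had a probe set fell (Mki67, Top2a, Rrm2, Mcm5 and Pcna), against 9.33% of all genes tested called lower. The summed signal of these 5 was 3127 to 3880 on the arrays at 0 h and 645 to 781 at 24 h. Of these, Mki67 and Top2a, at 6.8 to 44.3 at 24 h, passed the filter on mean signal only through the 0 h arrays. The summed signal of the 7 myoblast markers was 2312 to 2541 at 0 h and 3137 to 3612 at 24 h. Sums over probe sets, here and for the cycling markers, weigh the bright ones most. Of the 7, 3 were called higher (Des, Chrna1 and Myog) and 0 lower, against 7.67% of all genes tested called higher. Of the 3, Myog passed the filter only through the 24 h arrays. Myod1, Myf5, Ncam1 and Cdh15 were not called, with mean changes of 0.06, -0.14, -0.11 and 0.62. The 3' to 5' signal ratio of the actin control, a sign of RNA quality, was 1.30 to 1.34 on the arrays at 0 h and 1.33, 1.45 and 1.49 at 24 h on the arrays of the 3 treatments in that order. The part of cycling cells and of RNA quality in the changes of the 8 genes was not tested.

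Likeness over the 6 arrays was measured by Pearson r with the mean profile of the 8 genes, among 832 genes outside them whose signal ranged at least 2-fold. The 5 genes most like it were Pola1 (r = 0.994), Tcf19 (0.990), Fen1 (0.987), Tacc3 (0.986) and Pold1 (0.984). Pola1 read 148.0, 124.3 and 163.8 at 0 h and 41.8, 53.0 and 45.6 at 24 h for wild type, doxycycline and mutant in turn. At 24 h Tcf19 read 21.6 to 39.2 and Tacc3 13.9 to 29.0. Pola1, Tcf19 and Tacc3 passed the filter on mean signal only through the 0 h arrays, where they are high. Such an r includes the step between the times, and all genes share the same 6 arrays, so it is a description only.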

How the data were processed

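The deposited table gives 1 signal intensity per probe set and array on a linear scale; the authors used MAS5, per the submitters' processing notes, and no source used here states its version or settings. It held 12488 probe sets; 66 controls were left out. Gene names came from the array annotation (10833 probe sets with 1 symbol, 396 with several, 1193 with none); where a gene had several, the brightest by mean signal represented it. Probe sets with a mean signal of at least 75.2, the median, were tested (6212). Values under 16.4, the 25th percentile, were raised to it before taking log2. The fits used limma (version 3.58.1, under R 4.3.3) (trend in the variance, 2-sided, Benjamini-Hochberg over all probe sets tested, threshold 0.05), and the code was checked on simulated data. The change over time had treatment as a block (2 residual degrees of freedom); the wild-type difference over both times had time as a term (3), taking the arrays of a treatment as independent; that at each time used 1 mean per outcome and time (2). Counts of genes use 1 probe set per gene. The number of arrays limits the precision. Members, lists and tests were chosen with earlier results of these data known. Named from the lists were the regulators above and, of called genes, up to 4 with the largest change, besides the 5 most similar genes. Mvd, Sc5d, Mbtps1, Fasn, Abca1, Icmt and the macrophage, endothelial, adipocyte and epithelial markers were named after their values were seen. Alternatives covered filter, floor, scaling, variance trend, probe sets, blocks and each array left out.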

Additional observations from a re-analysis of the deposited data

Results flagged for a closer look

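The change of Dhcr7 from 0 h to 24 h had a different sign in the surviving treatment than in both dying ones: 0.12 in the wild-type treatment, against -0.59 under doxycycline and -0.21 for mutant p300. The difference of the wild-type change from the mean of the others was 0.52 on the log2 scale, and limma did not call it (unadjusted p = 0.438, adjusted p = 1).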

How the results depend on the processing

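Of the 8 enzymes, 5 were called over time. Without the filter on dim probe sets 0 were (12422 probe sets tested, 0 called in all and 2030 at an unadjusted p under 0.05, 5 of the 8 enzymes among those), and without the variance trend 3. Leaving out 1 array gave 3 to 6, with 3 without either mutant array. Idi1 and Sqle were called under 12 of the 13 alternatives, Fdps under 11, Hmgcs1 under 9, Cyp51 under 6, Fdft1 and Lss under 3 and Dhcr7 under 0. These are not 13 separate checks. Filter, variance trend and block leave the change itself as it was, and leaving out either array of a treatment removes the same pair. The changes kept their sign throughout. In 7 of the 8 enzymes the change was below 0 in all 3 treatments, so leaving out an array could not turn the sign. With the mean of its 4 probe sets, of which 1 was under the floor on every array, Fdps changed by -0.35 (limma, adjusted p = 0.13). For wild type against the other treatments at 24 h 0 enzymes were called. Spike-in scaling and the arrays at 24 h alone gave 1 each (Dhcr7). Leaving out the doxycycline or mutant array of 0 h gave 2, with the differences unchanged and only their spread altered. With either of these arrays of 24 h left out, a difference of 2 single arrays remains, so no count is read from it. Over both times spike-in scaling gave 1. Over time, the calls among all probe sets were 450 higher and 559 lower, against 141 and 479 with spike-in scaling, which moved the median change to -0.12. They came to 514 without the treatment block and to 479 to 1283 with 1 array left out. The total at 24 h was 48, with 11 to 419 under the alternatives that changed a setting and 45 to 351 with 1 array left out; over both times it was 33, with 1 to 237 and 0 to 50. Probe sets called in the other 3 comparisons numbered 0; without the filter there were 123 higher and 3 lower for wild type at 0 h and 152 and 93 for the difference of changes, and without the wild-type array of 0 h 107 and 156 for doxycycline against mutant. The 8 enzymes were called under none of the alternatives in those 3. The cause of these shifts was not tested. The labels carry no replicate numbers; the comparison over time paired the arrays of a treatment.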

Other observations

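Dhcr7 did not follow the other enzymes, and the genes most like it over the 6 arrays, looked up after its values were seen, were Slpi (Pearson r = 0.988), Pkp4 (0.987), Bzw2 (0.984), Hbegf (0.981) and Bid (0.972), among the same 832 candidates. Bzw2, a translation regulator, read 1705.3, 810.9 and 1137.3 at 0 h and 2035.7, 451.9 and 822.9 at 24 h for wild type, doxycycline and mutant in turn. Slpi, a secreted protease inhibitor, read 835.7, 180.8 and 336.5 at 0 h and 1159.6, 91.8 and 239.8 at 24 h. Bid, a pro-apoptotic member of the BCL2 family, read 374.8, 241.5 and 314.2 and then 385.3, 191.3 and 240.4. In all 3, as in Dhcr7, the wild-type array was the highest and the doxycycline array the lowest at both times. They were picked for that pattern, so it is a description and has no test.

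Icmt, the methyltransferase that finishes the processing of prenylated proteins, read 133.1, 99.7 and 86.7 at 0 h and 163.8, 55.1 and 47.5 at 24 h in the same order. Its difference of wild type from both other treatments was 1.10 over both times and was not called by limma (adjusted p = 0.13). Over the doxycycline and mutant arrays the mean signal of Icmt was under the filter of 75.2. It was tested only through the wild-type arrays, where it is high, so its values are a description.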
